A study of Mus musculus with 14 samples.

Results

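Integrins are the cell's main receptors for extracellular matrix, and each is a pair of 1 alpha and 1 beta chain. The 10 genes described here encode alpha chains other than αV: Itga1, Itga2, Itga10 and Itga11, whose products bind collagens, Itga3, Itga6 and Itga7, whose products bind laminins of the basement membrane, and Itga5, Itga8 and Itga9, whose products bind fibronectin, nephronectin, tenascin-C and related ligands. They were chosen by gene name from the deposited table of 32289 genes, and all 10 were found, each on 1 row. All these chains pair with the beta 1 chain, and that of Itga6 also pairs with the beta 4 chain of hemidesmosomes. In arteries, smooth muscle cells hold on to their basement membrane and to elastic lamellae through such receptors, and alpha 8 and alpha 7 chains are known from contractile smooth muscle.

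The RNA came from ascending aortic tissue of C57BL/6 mice at 6 weeks of modelling, in 14 libraries. Mice of the first group received BAPN together with SB273005 (n = 4), those of the second BAPN together with Cilengitide (n = 3), those of the third BAPN without an inhibitor (n = 4), and the controls PBS (n = 3). BAPN (beta-aminopropionitrile) blocks lysyl oxidase, the enzyme that crosslinks collagen and elastin, and is used in mice to weaken the aortic wall. SB273005, a small molecule, and Cilengitide, a cyclic peptide with the RGD sequence, are inhibitors of integrin αV. The labels give no dose, sex or age. They are silent on whether each library of a group is from its own animal, so the p-values cover the spread among these libraries and nothing wider. No group received an inhibitor without BAPN.

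Total counts ran from 49027885 to 72584877 per library. Smooth muscle markers were present in every library, which alone does not test the label of ascending aorta. Summed kidney tubule and epithelial markers were at 232 to 340 FPKM in BAPN+SB273005 and 239 to 251 in BAPN+Cilengitide. They were at 193 to 259 in BAPN and 244 to 305 in PBS, and their source was not tested. The sum over 8 smooth muscle markers (Acta2, Myh11 and others) was 1167 to 6995 FPKM in BAPN+SB273005 and 6066 to 8034 in BAPN+Cilengitide. It was 6957 to 10587 in BAPN and 8940.0 to 10628 in PBS. BAPN+SB273005 replicate 2 was the library at 1167 FPKM, and 17.9% of its counts were mitochondrial, against 4.10% to 10.2% elsewhere. The libraries also divide in a way that was found in the data and that no label gives. In 6 of them (PBS replicates 1 to 3 and BAPN+SB273005 replicates 1 to 3) the class II gene H2-Ea was at 0 counts, and in the other 8, which include all BAPN and BAPN+Cilengitide libraries, it had 83 to 130 counts. Umod, of the kidney list, was at 7.73 to 11.6 FPKM in the set without H2-Ea and at 19.8 to 25.8 in the set with it. No set holds both PBS and BAPN or PBS and BAPN+Cilengitide libraries, so there the set and the treatment cannot be told apart. Values with the set as a term or within a set are given beside some of the results. Only BAPN+SB273005 has libraries in both sets. The set term therefore takes its size from replicate 4 of that group against its replicates 1 to 3, and values with it rest on that 1 library.

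Sequences are shown for the genes whose start sites bear on the values that follow. Itga3 has a pair of start sites that the deposited transcripts use in different shares, Itga11 had the widest range among the 10 genes, and Itga8 had the highest level. Each window holds 250 bases before to 50 bases after the start, on the gene's own strand and from RefSeq on GRCm38.p6, and capitals mark a match to Sp1 (GGGCGG) or AP-1 (TGANTCA) on either strand.
Itga3 upstream start, chr11:95076665-95076964, minus strand: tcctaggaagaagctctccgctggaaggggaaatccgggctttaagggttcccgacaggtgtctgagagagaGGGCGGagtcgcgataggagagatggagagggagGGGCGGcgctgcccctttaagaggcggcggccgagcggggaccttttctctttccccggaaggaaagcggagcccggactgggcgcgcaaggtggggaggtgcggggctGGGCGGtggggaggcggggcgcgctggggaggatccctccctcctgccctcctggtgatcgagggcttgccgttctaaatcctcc
Itga3 downstream start, chr11:95069149-95069448, minus strand: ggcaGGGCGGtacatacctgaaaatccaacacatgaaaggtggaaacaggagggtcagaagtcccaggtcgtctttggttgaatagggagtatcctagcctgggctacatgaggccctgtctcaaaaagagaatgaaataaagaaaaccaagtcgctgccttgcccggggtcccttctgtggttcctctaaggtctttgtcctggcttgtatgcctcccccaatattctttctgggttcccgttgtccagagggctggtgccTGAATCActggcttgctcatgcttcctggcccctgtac
Itga11, chr9:62677605-62677904, plus strand: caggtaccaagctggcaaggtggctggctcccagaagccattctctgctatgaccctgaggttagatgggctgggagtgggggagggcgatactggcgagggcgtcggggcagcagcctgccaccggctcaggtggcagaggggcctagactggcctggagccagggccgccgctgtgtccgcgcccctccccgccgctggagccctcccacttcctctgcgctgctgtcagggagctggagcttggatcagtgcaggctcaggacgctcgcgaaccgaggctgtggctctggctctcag
Itga8, chr2:12301895-12302194, minus strand: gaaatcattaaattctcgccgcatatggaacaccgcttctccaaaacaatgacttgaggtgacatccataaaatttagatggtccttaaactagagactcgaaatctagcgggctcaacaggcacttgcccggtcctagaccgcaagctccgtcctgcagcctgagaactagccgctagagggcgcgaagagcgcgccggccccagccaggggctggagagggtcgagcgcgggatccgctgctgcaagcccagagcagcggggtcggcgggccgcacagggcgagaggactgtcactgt

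RefSeq windows were found for 8 of the 10 genes, 9 windows in all, and that of Itga9 lies at a start inside the gene. The upstream Itga3 window holds 3 matches to GGGCGG, and the downstream one holds 1 match to GGGCGG and 1 to TGANTCA, with no overlap between them. Over all 32851 windows of the table, 35.7% hold GGGCGG and 7.81% hold TGANTCA, and among the 9 member windows the numbers are 4 and 2. The serum response element known as the CArG box was in 1.63% of all windows and in 0 of the 9, and the TEAD letters GGAATG were in 14.7% of all windows and in 1 of the 9, that of Itga10. No match was found in the Itga11 and Itga8 windows, which says only that these letters are not in these 300 bases. A match is a description of the sequence and not a binding site.

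Levels of the 10 genes spanned more than 3 orders of magnitude. FPKM, fragments scaled by transcript length and by library size, allows levels of different genes to be compared, as far as the length used for each gene holds. In PBS aortas Itga8 was the highest at 319 ± 38.7 FPKM, followed by Itga5 at 114 ± 3.83, Itga9 at 67.1 ± 5.27, Itga3 at 39.5 ± 2.06 and Itga7 at 27.3 ± 1.64 FPKM (SD, n = 3). The others were lower, with Itga10 at 5.12 ± 0.513, Itga1 at 3.94 ± 0.368, Itga11 at 1.55 ± 0.538, Itga6 at 0.618 ± 0.166 and Itga2 at 0.148 ± 0.0625 FPKM. No neighbours in this order overlapped between PBS libraries. By gene FPKM the fibronectin and nephronectin receptors thus had the highest levels, the laminin receptors Itga3 and Itga7 stood in the middle, and the collagen receptors were low.

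The order shifted in the other groups. Itga11 ranked sixth in BAPN+SB273005 and in BAPN+Cilengitide, above Itga10 and without overlap with it, and eighth in BAPN and in PBS. Itga8 and Itga5 overlapped in BAPN+SB273005 and in BAPN, and did not in BAPN+Cilengitide and PBS. Among the low genes, Itga1, Itga11 and Itga6 overlapped as neighbours in BAPN, and Itga1 and Itga6 did in BAPN+Cilengitide. In BAPN+SB273005 the neighbours Itga9, Itga3, Itga7 and Itga11 overlapped in turn, as did Itga10, Itga6 and Itga1. As a share of the summed FPKM of the 10 genes, Itga8 made up 23.2% to 48.2% in BAPN+SB273005, 38.5% to 47.3% in BAPN+Cilengitide, 41.9% to 50.7% in BAPN and 52.8% to 57.7% in PBS. Itga5 made up 24.1% to 38.6% in BAPN+SB273005, 26.4% to 33.7% in BAPN+Cilengitide, 26.1% to 38.0% in BAPN and 18.2% to 20.8% in PBS. Each library of the 3 BAPN groups thus had a larger Itga5 share and a smaller Itga8 share than each PBS library. Shares within 1 library are tied to each other, so a lower share of Itga8 alone raises the others.

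**Figure D1:**
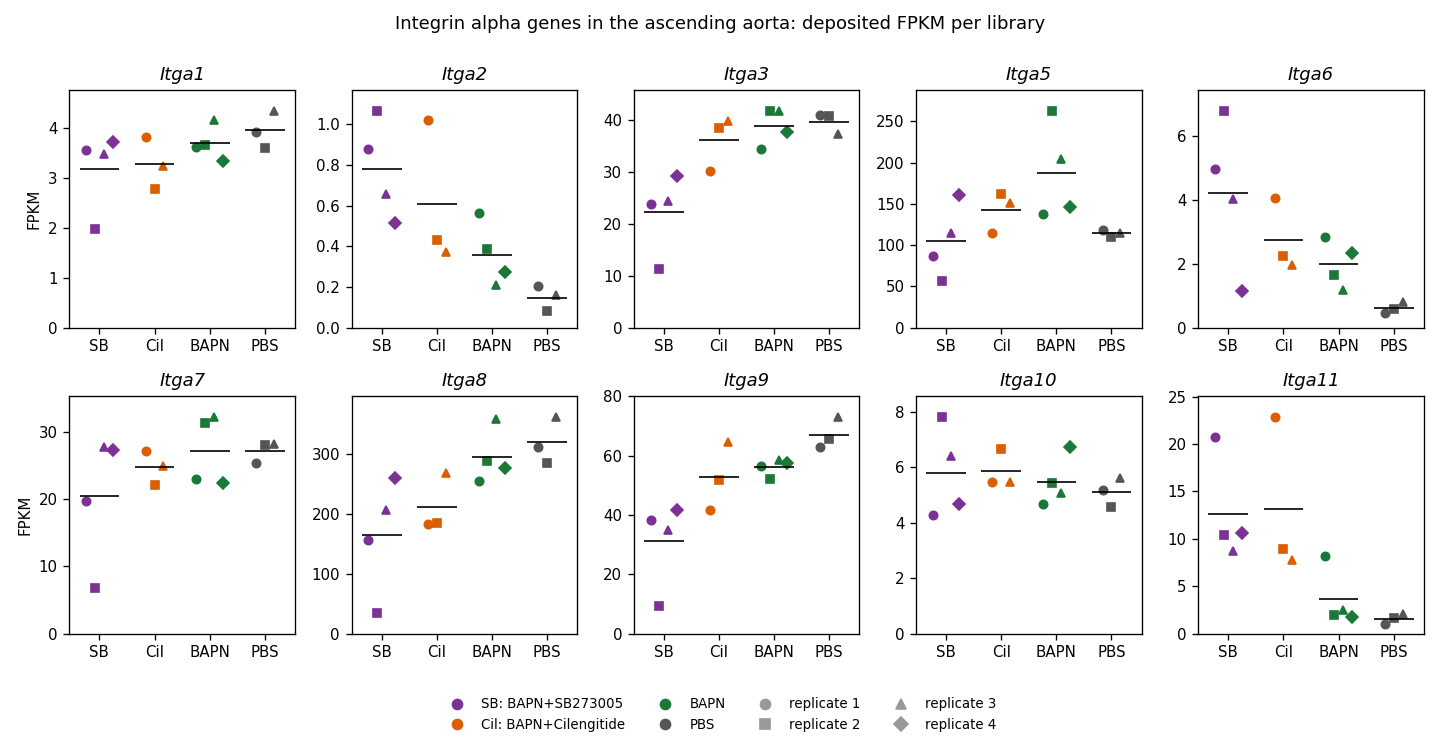
Deposited FPKM of each of the 10 genes (vertical axes from 0, 1 panel a gene) in every library, with BAPN+SB273005 (SB), BAPN+Cilengitide (Cil), BAPN and PBS from left to right, symbols for the replicate number and a line at the group mean. Itga11 and Itga6 have their lowest group means in PBS, at 1.55 and 0.618 FPKM, and BAPN+SB273005 replicate 2 (squares) is the lowest library for Itga1, Itga3, Itga5, Itga7, Itga8 and Itga9.

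Itga2, Itga10, Itga1 and Itga11 encode the collagen receptors, and Itga11, known from fibroblasts and binding fibrillar collagen, was the member that differed most. It was at 20.7, 10.4, 8.67 and 10.6 FPKM in the BAPN+SB273005 libraries, at 22.8, 8.92 and 7.76 in BAPN+Cilengitide, at 8.21, 2.00, 2.52 and 1.80 in BAPN, and at 0.961, 1.68 and 2.01 in PBS. All 7 libraries with an inhibitor lay above all 3 PBS libraries, and all 4 BAPN+SB273005 libraries lay above all 4 BAPN libraries. BAPN replicate 1 lay above the lowest BAPN+Cilengitide library, and the other 3 BAPN libraries lay below it. With edgeR's quasi-likelihood test, fitted over 13294 genes, Itga11 rose 8.35-fold in BAPN+SB273005 against PBS, a log2 difference of 3.06 ± 0.61 (SE; adjusted p = 0.00892). It rose 8.60-fold in BAPN+Cilengitide against PBS, a log2 difference of 3.10 ± 0.63 (edgeR adjusted p = 0.0164). Both comparisons use the same PBS libraries. Against BAPN the log2 differences were 1.86 ± 0.52 for BAPN+SB273005 (edgeR adjusted p = 0.170) and 1.90 ± 0.55 for BAPN+Cilengitide (edgeR adjusted p = 0.795), neither past the threshold of 0.05, and that of BAPN against PBS was 1.21 ± 0.57 (edgeR adjusted p = 0.430). In these bulk samples, more cells of a type and more RNA per cell cannot be told apart.

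The call of Itga11 in BAPN+SB273005 against PBS passed under all 27 alternatives, and within the set without H2-Ea it was 3.15 ± 0.44 (edgeR adjusted p = 0.0261). In BAPN+Cilengitide against PBS it did not pass without PBS replicate 1 (2.84, edgeR adjusted p = 0.0541), without PBS replicate 2 (3.19, adjusted p = 0.0671), without BAPN+Cilengitide replicate 1 (2.46, adjusted p = 0.0675) or with the library set as a term (3.42, adjusted p = 0.222). Leaving out BAPN replicate 1 brought BAPN+SB273005 against BAPN to 2.62 (edgeR adjusted p = 0.0380). Summed markers of fibroblasts, which are known to carry this chain, were 1225 to 1628 FPKM in BAPN+SB273005, 1222 to 1784 in BAPN+Cilengitide, 1370 to 1786 in BAPN and 957 to 1415 in PBS. Summed markers of chondrocytes were 62.1 to 312 FPKM in BAPN+SB273005, 97.5 to 349.9 in BAPN+Cilengitide, 39.9 to 62.3 in BAPN and 20.8 to 22.9 in PBS, with Matn1 listed at 0 in all PBS libraries. By the edgeR test 2 of 8 fibroblast and 1 of 5 chondrocyte markers were higher in BAPN+SB273005 than in PBS (7.82% of all genes were), 1 of 8 and 1 of 5 in BAPN+Cilengitide (3.98% of all genes), and 0 of both lists in BAPN (0.181% of all genes). The fibroblast count in BAPN+SB273005 was 0 without PBS replicate 2, and 1 without PBS replicate 1 or 3, BAPN replicate 2 or 4, BAPN+Cilengitide replicate 2 or 3 or BAPN+SB273005 replicate 2 or 3. In BAPN+Cilengitide it was 2 without BAPN+SB273005 replicate 2, 1 without BAPN replicate 1 or BAPN+SB273005 replicate 3, and 0 without any other library. The chondrocyte count was 2 without BAPN replicate 1, BAPN+Cilengitide replicate 1 or BAPN+SB273005 replicate 2 or 3 in BAPN+SB273005, and without BAPN+SB273005 replicate 1 or 2 in BAPN+Cilengitide. Markers of macrophages and monocytes were higher for 10 of 10 in BAPN+SB273005, for 9 of 10 in BAPN+Cilengitide and for 1 of 10 in BAPN, each against PBS. With 1 library left out these counts were 8 to 10, 6 to 10 and 0 to 6: in BAPN 6 without BAPN+SB273005 replicate 1 or 2, 2 without its replicate 4, and 0 without any 1 PBS library or BAPN replicate 2 or 4. Their sums were 528 to 1118 FPKM in BAPN+SB273005, 512 to 1022 in BAPN+Cilengitide, 324 to 787 in BAPN and 159 to 303 in PBS. The part of these cell types in the Itga11 and Itga6 results was not tested.

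The other collagen receptor genes did not pass the test. Itga2, best known from platelets and epithelia, had 0.881, 1.06, 0.659 and 0.513 FPKM in BAPN+SB273005, 1.02, 0.429 and 0.374 in BAPN+Cilengitide, 0.564, 0.388, 0.211 and 0.274 in BAPN, and 0.203, 0.0802 and 0.162 in PBS. All libraries of the 3 BAPN groups lay above the highest PBS library, but the gene missed the minimum of 1 FPKM in 3 libraries and was not in the main fit. Without that filter, over 26709 genes, its log2 difference against PBS was 2.41 ± 0.46 in BAPN+SB273005 (edgeR adjusted p = 0.0153), 2.08 ± 0.47 in BAPN+Cilengitide (edgeR adjusted p = 0.0459) and 1.30 ± 0.44 in BAPN (edgeR adjusted p = 0.339). PBS libraries held 43 to 85 estimated counts of it, so these values rest on few reads. The summed markers of platelets and megakaryocytes divided the libraries in the same way, with 17.4 to 22.9 FPKM in BAPN+SB273005, 16.5 to 27.7 in BAPN+Cilengitide, 16.6 to 25.6 in BAPN and 8.17 to 9.18 in PBS. Of the 5 markers 2 were tested, and 1 was higher in each of the 3 groups than in PBS by edgeR, in BAPN not without any 1 PBS library or BAPN replicate 1, 2 or 4. The shares of all genes that were higher are 7.82%, 3.98% and 0.181% in the same order of groups. The median log2 difference of the 2 tested markers was 1.12, -0.14 and 1.07, so in BAPN+Cilengitide the other tested marker was lower than in PBS. The part of platelets in the Itga2 levels was not tested. Itga1, a receptor for collagen IV and laminin, had 1.98 to 3.71 FPKM in BAPN+SB273005, 2.78 to 3.82 in BAPN+Cilengitide, 3.34 to 4.15 in BAPN and 3.59 to 4.33 in PBS, and its edgeR adjusted p was 0.356 or more in all 6 comparisons. Itga10, known from cartilage, varied least of the 10 genes, with 4.27 to 7.80 FPKM in BAPN+SB273005, 5.47 to 6.67 in BAPN+Cilengitide, 4.66 to 6.75 in BAPN and 4.58 to 5.60 in PBS (edgeR adjusted p of 0.464 or more in all 6 comparisons).

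Among the laminin receptors Itga6 rose and Itga3 fell. Itga6 was at 4.96, 6.77, 4.02 and 1.13 FPKM in BAPN+SB273005, at 4.06, 2.24 and 1.95 in BAPN+Cilengitide, at 2.82, 1.64, 1.19 and 2.34 in BAPN, and at 0.472, 0.583 and 0.798 in PBS. All 11 libraries with BAPN lay above all PBS libraries, and BAPN+SB273005 replicate 4 was the lowest of them. The log2 difference from PBS was 2.82 ± 0.53 in BAPN+SB273005 (7.06-fold, edgeR adjusted p = 0.00663) and 2.17 ± 0.53 in BAPN+Cilengitide (4.51-fold, edgeR adjusted p = 0.0338). In BAPN it was 1.67 ± 0.50 and did not pass (edgeR adjusted p = 0.167). BAPN+SB273005 against BAPN gave 1.15 ± 0.44 (edgeR adjusted p = 0.247), and within the set with H2-Ea, where BAPN+SB273005 replicate 4 is the lone library with SB273005, the sign turned to -0.76 ± 0.52, with that library assumed to vary like the others. Summed endothelial markers, of cells known to carry the Itga6 chain, were 111, 135, 105 and 74.3 FPKM in BAPN+SB273005, 111, 56.6 and 61.7 in BAPN+Cilengitide, 76.6, 83.6, 69.4 and 111 in BAPN, and 75.6, 87.3 and 80.3 in PBS. Within BAPN+SB273005 the libraries had the same order as for Itga6, but within BAPN+Cilengitide, BAPN and PBS they did not, and the groups overlapped. Lymphatic endothelial markers summed to 41.0 to 72.7 FPKM in BAPN+SB273005, 28.9 to 70.1 in BAPN+Cilengitide, 17.5 to 56.6 in BAPN and 12.4 to 18.9 in PBS. By edgeR 1 of 8 endothelial and 2 of 4 tested lymphatic markers were higher in BAPN+SB273005 than in PBS (7.82% of all genes were), and 0 in BAPN+Cilengitide and in BAPN. The endothelial count was 5 without BAPN+SB273005 replicate 4, 3 without BAPN+Cilengitide replicate 1, 1 without BAPN replicate 3 or BAPN+Cilengitide replicate 2 or 3, and 0 without any other library. In BAPN+Cilengitide 1 was higher without BAPN+SB273005 replicate 1 or 4, and 1 lower without BAPN replicate 1, BAPN+Cilengitide replicate 1 or BAPN+SB273005 replicate 2. The lymphatic count was 0 without any 1 PBS library and 1 without BAPN replicate 2 or 4 or BAPN+SB273005 replicate 1 or 3. The sum of the platelet markers given above also divided the libraries as Itga6 did, though not each marker rose. The part of these cells in the Itga6 levels was not tested.

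The Itga6 value in BAPN+SB273005 against PBS passed under all 27 alternatives, and that in BAPN+Cilengitide against PBS under 15 of 26. Over all alternatives the log2 difference from PBS ran from 1.09 to 4.39 in BAPN+Cilengitide and from 0.72 to 3.89 in BAPN. The BAPN+Cilengitide call was lost without PBS replicate 1, 2 or 3 (1.99, 2.16 and 2.40, edgeR adjusted p = 0.101, 0.109 and 0.0686) and without BAPN+Cilengitide replicate 1 or 2 (1.80 and 2.29, adjusted p = 0.130 and 0.0715). The estimated counts of the gene are made up of transcripts that behaved differently. Itga6-203, a non-coding transcript of 3 exons at chr2:71849029-71858416 (mm10) and 2721 bases, was listed at 7.34, 13.6, 5.94 and 0 FPKM in BAPN+SB273005, 7.04, 4.48 and 3.13 in BAPN+Cilengitide, 4.40, 2.63, 2.47 and 3.57 in BAPN, and at 0 in all 3 PBS libraries. It was thus present in 10 of 11 libraries with BAPN and listed at 0 in the remaining one, BAPN+SB273005 replicate 4. Itga6-201, a coding transcript of 26 exons that shares 1031 bases (37.9%) of Itga6-203, was at 4.75, 5.01, 3.26 and 2.24 FPKM in BAPN+SB273005, 3.95, 1.65 and 1.59 in BAPN+Cilengitide, 2.55, 1.52, 0.840 and 1.82 in BAPN, and 0.831, 0.808 and 1.29 in PBS.

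The coding transcript overlapped between BAPN and PBS, and did not overlap between either inhibitor group and PBS. With counts of coding transcripts only, an alternative chosen after seeing the transcripts, the Itga6 log2 difference against PBS was 1.90 ± 0.44 in BAPN+SB273005 (edgeR adjusted p = 0.0193), 1.09 ± 0.45 in BAPN+Cilengitide (adjusted p = 0.212) and 0.72 ± 0.42 in BAPN (adjusted p = 0.644). The estimate for a transcript that shares bases with another rests on how the authors' assembler divided the reads.

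**Figure D2:**
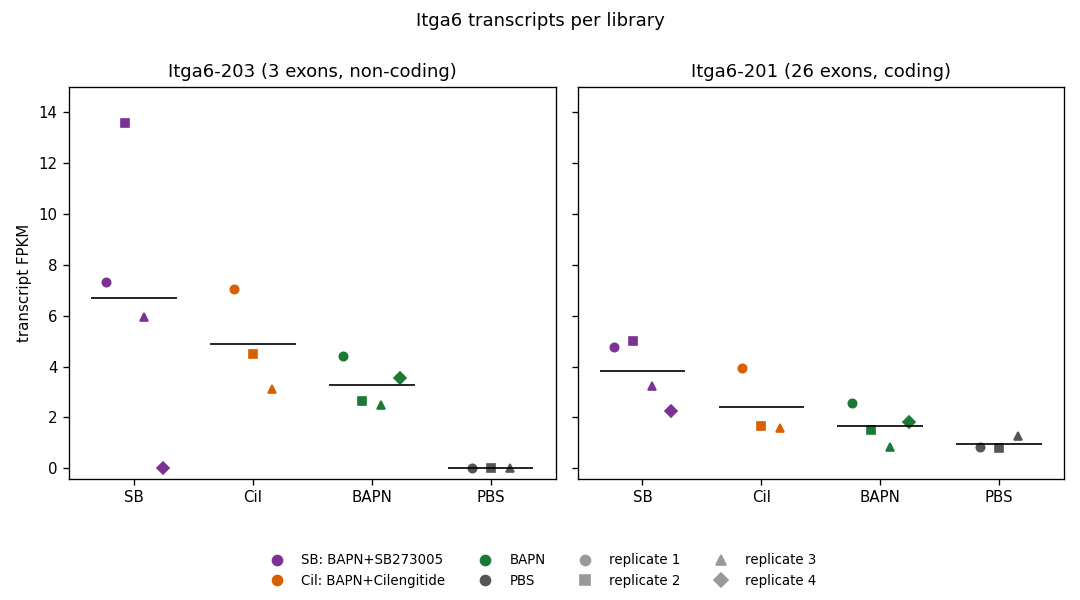
FPKM of the non-coding Itga6-203 (left panel) and the coding Itga6-201 (right panel) in every library, with BAPN+SB273005 (SB), BAPN+Cilengitide (Cil), BAPN and PBS from left to right and a line at the group mean. Itga6-203 is listed at 0 in the 3 PBS libraries and in BAPN+SB273005 replicate 4 and lies between 2.47 and 13.6 FPKM in the remaining 10.

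Itga3, whose product binds laminins of the epithelial and vascular basement membrane, was at 23.7, 11.3, 24.4 and 29.2 FPKM in BAPN+SB273005, at 30.1, 38.5 and 39.8 in BAPN+Cilengitide, at 34.3, 41.6, 41.6 and 37.6 in BAPN, and at 40.8, 40.6 and 37.2 in PBS. The highest BAPN+SB273005 library lay below the lowest library of each other group. The log2 difference was -0.79 ± 0.23 from PBS (0.579-fold, edgeR adjusted p = 0.0400), -0.76 ± 0.21 from BAPN (edgeR adjusted p = 0.170) and -0.70 ± 0.23 from BAPN+Cilengitide (edgeR adjusted p = 0.500). Only that from PBS passed, and it did not within the set without H2-Ea (-0.94 ± 0.27, adjusted p = 0.113). It lay near the threshold, and the call held under 13 of 27 alternatives. Leaving out 1 library in turn kept the sign in all 14 fits, with -0.95 to -0.59 and an edgeR adjusted p of 0.0185 to 0.129, and the call in 4. The 4 libraries without which it passed are BAPN replicate 1, BAPN+Cilengitide replicate 1, and BAPN+SB273005 replicates 2 and 4. Smooth muscle markers were lower in the same group, and per 1000 FPKM of their sum Itga3 was at 4.18 to 9.70 in BAPN+SB273005, 4.95 to 5.29 in BAPN+Cilengitide, 3.93 to 5.40 in BAPN and 3.66 to 4.56 in PBS. On that scale BAPN+SB273005 did not lie below PBS, and the part of smooth muscle content in the fall of Itga3 was not tested.

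The start sites of Itga3 shown above belong to Itga3-201 (upstream) and Itga3-202 (downstream), which share 4277 bases and differ in 584 bases of the first and 359 of the second. Itga3-202 held 14.9% to 43.3% of the gene's transcript FPKM in BAPN+SB273005, 21.6% to 47.8% in BAPN+Cilengitide, 2.34% to 43.5% in BAPN and 18.6% to 44.8% in PBS. These ranges overlap throughout, and the spread between libraries of 1 group was as wide as that between groups. Itga7, the laminin receptor chain of muscle, was at 19.7, 6.84, 27.8 and 27.3 FPKM in BAPN+SB273005, at 27.3, 22.2 and 25.0 in BAPN+Cilengitide, at 23.0, 31.3, 32.2 and 22.4 in BAPN, and at 25.4, 28.2 and 28.3 in PBS. Its groups overlapped in all 6 comparisons (edgeR adjusted p of 0.491 or more). Per 1000 FPKM of summed smooth muscle markers it was at 3.91 to 5.86 in BAPN+SB273005, 3.05 to 4.49 in BAPN+Cilengitide, 3.05 to 3.29 in BAPN and 2.65 to 2.84 in PBS. Skeletal muscle markers summed to 61.3 to 261 FPKM in BAPN+SB273005, 163 to 384 in BAPN+Cilengitide and 137 to 1296 in BAPN, while PBS replicate 2 was at 1992 and the other PBS libraries at 33.0 and 40.7. Itga7 in that library, at 28.2 FPKM, lay between the other PBS libraries.

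**Figure D3:**
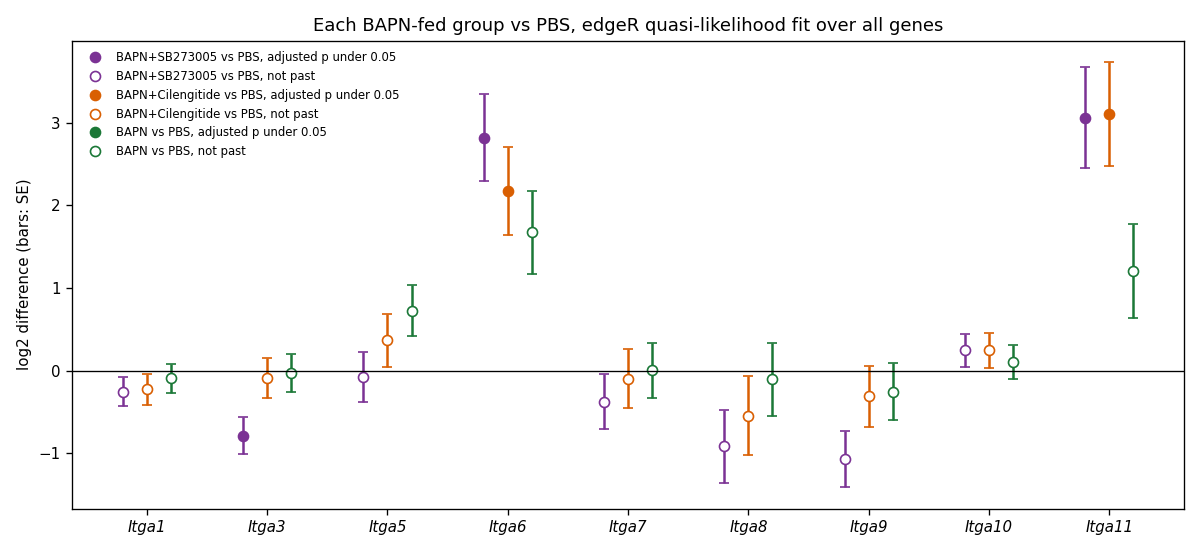
Log2 differences (vertical axis, bars show the SE) of the 9 tested genes (horizontal axis) in BAPN+SB273005, BAPN+Cilengitide and BAPN, each against PBS, from the edgeR fit over all genes. Filled points have an adjusted p under 0.05: Itga6 and Itga11 in both inhibitor groups, and Itga3 in BAPN+SB273005.

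Itga8, Itga9 and Itga5 encode the fibronectin, nephronectin and tenascin receptors. Itga8, the most abundant of the 10 and known from vascular smooth muscle, was at 157, 33.8, 207 and 259 FPKM in BAPN+SB273005, at 183, 185 and 269 in BAPN+Cilengitide, at 255, 288, 359 and 278 in BAPN, and at 311, 286 and 362 in PBS. All 7 inhibitor libraries lay below all 3 PBS libraries, and BAPN overlapped with PBS. The log2 difference from PBS was -0.92 ± 0.44 in BAPN+SB273005 (edgeR adjusted p = 0.189), -0.55 ± 0.48 in BAPN+Cilengitide (edgeR adjusted p = 0.584) and -0.11 ± 0.45 in BAPN (edgeR adjusted p = 0.967). None passed. From BAPN it was -0.81 ± 0.42 in BAPN+SB273005 (edgeR adjusted p = 0.349) and -0.44 ± 0.45 in BAPN+Cilengitide (edgeR adjusted p = 0.873). Without BAPN+SB273005 replicate 2 the difference of BAPN+SB273005 from PBS was -0.60 ± 0.21 (edgeR adjusted p = 0.0832). Over all alternatives the Itga8 difference from PBS reached -1.10 in BAPN and -1.55 in BAPN+Cilengitide, without passing. With 1 library left out these went no lower than -0.23 and -0.75.

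Itga9, whose product binds tenascin-C, VCAM-1 and osteopontin, was at 38.3, 9.42, 35.0 and 41.6 FPKM in BAPN+SB273005, at 41.8, 51.8 and 64.5 in BAPN+Cilengitide, at 56.5, 52.3, 58.5 and 57.4 in BAPN, and at 62.8, 65.5 and 73.0 in PBS. Every BAPN+SB273005 library lay below every library of the other 3 groups, and every BAPN library lay below every PBS library. BAPN+SB273005 differed from PBS by -1.07 ± 0.34, just outside the threshold (edgeR adjusted p = 0.0569). This difference passed under 9 of 27 alternatives. Of the 14 fits that leave out 1 library it passed in 2. These were without BAPN+SB273005 replicate 2 (-0.79 ± 0.15, edgeR adjusted p = 0.00829) and without replicate 4 of that group (-1.25, edgeR adjusted p = 0.0405). From BAPN the log2 difference was -0.82 ± 0.32 (edgeR adjusted p = 0.253), and from BAPN+Cilengitide -0.76 ± 0.34 (edgeR adjusted p = 0.536).

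Itga5, the classical fibronectin receptor chain, was at 86.5, 56.1, 115 and 160.3 FPKM in BAPN+SB273005, at 115, 162 and 151 in BAPN+Cilengitide, at 137, 262, 204 and 147 in BAPN, and at 118, 110.4 and 114 in PBS. All 4 BAPN libraries lay above the PBS libraries, while both inhibitor groups overlapped with PBS. The log2 difference was 0.72 ± 0.31 in BAPN against PBS (edgeR adjusted p = 0.369) and -0.80 ± 0.28 in BAPN+SB273005 against BAPN (edgeR adjusted p = 0.223), neither past the threshold. With the library set as a term, the sign of BAPN against PBS turned to -0.19 ± 0.47. The size of that term rests on BAPN+SB273005 replicate 4, a library outside this comparison.

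Smooth muscle markers moved with these levels, and the members were therefore also set per 1000 FPKM of the 8 summed markers, a description chosen after seeing the data. On this scale Itga8 was at 29.0 to 37.1 in BAPN+SB273005, 25.5 to 33.5 in BAPN+Cilengitide, 30.2 to 39.9 in BAPN and 26.9 to 35.6 in PBS, and all 4 groups overlapped, BAPN+SB273005 replicate 2 included. Itga9 was at 5.95 to 8.36 in BAPN+SB273005, 6.88 to 8.03 in BAPN+Cilengitide, 5.49 to 8.25 in BAPN and 6.17 to 7.19 in PBS, again with overlap. Itga5 did not overlap with PBS on this scale: it was at 18.9 to 48.1 in BAPN+SB273005, 18.8 to 22.3 in BAPN+Cilengitide, 19.3 to 27.5 in BAPN and 10.4 to 13.2 in PBS. A gene of unchanged FPKM rises on this scale where the markers fall. In BAPN+SB273005 the Itga5 log2 difference from PBS was -0.08 ± 0.30 (edgeR adjusted p = 0.896), and Itga1, Itga7 and Itga10 also lay above PBS on this scale. Itga11 was at 1.52 to 8.95 in BAPN+SB273005, 0.966 to 3.76 in BAPN+Cilengitide, 0.209 to 1.16 in BAPN and 0.107 to 0.198 in PBS. Of the 8 markers, 4 were lower in BAPN+SB273005 than in PBS by the edgeR test (5.38% of all genes were lower) and 0 in the other comparisons with PBS. In BAPN+SB273005 against PBS the number was 2, 0 and 1 without PBS replicate 1, 2 and 3, 1 without BAPN+SB273005 replicate 1, 5 without its replicate 2 and 6 without its replicate 4, and 0 within the set without H2-Ea. In BAPN+Cilengitide against PBS it was 3 without BAPN+SB273005 replicate 2. The part of smooth muscle content in the Itga8 and Itga9 levels was not tested.

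**Figure D4:**
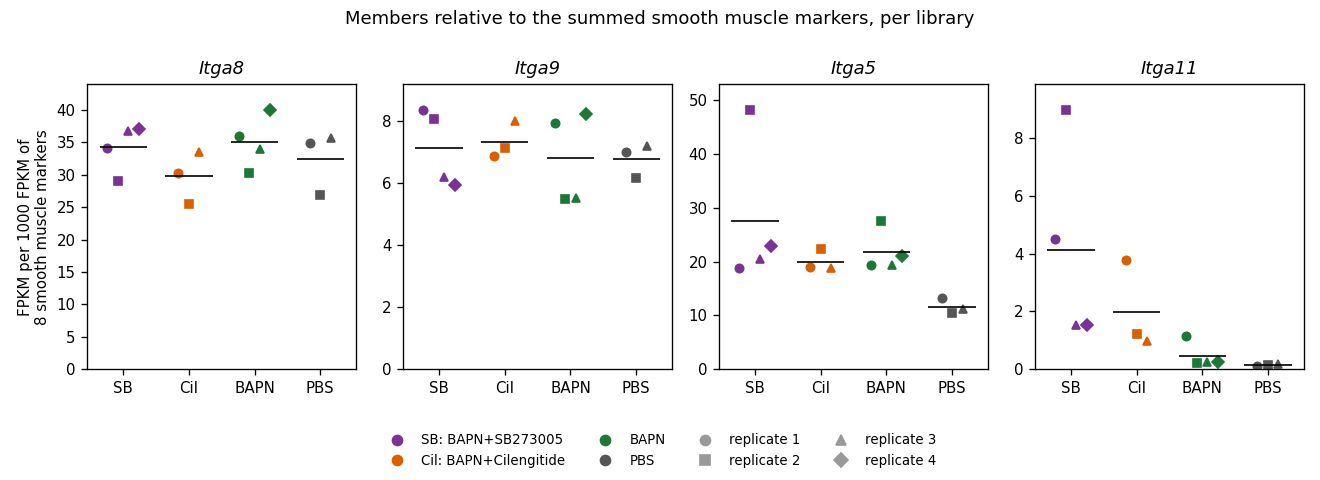
FPKM of Itga8, Itga9, Itga5 and Itga11 per 1000 FPKM of 8 summed smooth muscle markers (vertical axes from 0) in every library, with BAPN+SB273005 (SB), BAPN+Cilengitide (Cil), BAPN and PBS from left to right and a line at the group mean. The groups overlap for Itga8 and Itga9, and the PBS libraries lie below the others for Itga5 and Itga11. A value on this scale also rises where the summed markers fall.

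In counts, 3 of the 9 tested members passed in BAPN+SB273005 against PBS (2 higher and 1 lower), where 13.2% of all genes tested passed, 7.82% higher and 5.38% lower. Against PBS, BAPN+Cilengitide had 2 of 9 past the threshold, both higher, where 5.58% of all genes passed, 3.98% higher and 1.60% lower. BAPN against PBS had 0 of 9, and 0.233% of all genes passed, 0.181% higher and 0.0527% lower, while 2 members had an unadjusted edgeR p under 0.05 and DESeq2 called 1 member, Itga6 (adjusted p = 0.0148). BAPN+SB273005 against BAPN had 0 of 9, and 0.0301% of all genes passed, 0.00752% higher and 0.0226% lower, while 5 members had an unadjusted p under 0.05 and DESeq2 called 2, Itga3 (adjusted p = 0.0295) and Itga11 (adjusted p = 0.0112). Between BAPN+Cilengitide and BAPN, 0 of 9 members and 0% of all genes passed in edgeR, with 1 member at an unadjusted p under 0.05 and 0 called by DESeq2, which called 21 genes in all. Between BAPN+SB273005 and BAPN+Cilengitide, 0 of 9 members and 0% of all genes passed in edgeR, with 2 members at an unadjusted p under 0.05 and 0 called by DESeq2, which called 39 genes in all.

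The members whose ranges did not overlap numbered 5 of 9 in BAPN+SB273005 against PBS (23.2% of all genes), 3 in BAPN+Cilengitide against PBS (31.9%) and 3 in BAPN against PBS (14.6%). They numbered 3 in BAPN+SB273005 against BAPN (7.87%), 2 in BAPN+SB273005 against BAPN+Cilengitide (6.53%) and 0 in BAPN+Cilengitide against BAPN (10.5%). The median absolute log2 difference of the 9 members was 0.79 in BAPN+SB273005 against PBS, beside 0.24 over all genes, and 0.80 beside 0.18 in BAPN+SB273005 against BAPN. For BAPN+Cilengitide against PBS it was 0.31 beside 0.21, and in BAPN against PBS 0.11 beside 0.15.

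The inhibitors were compared with each other without known doses. Itga11 differed by -0.04 ± 0.54 between BAPN+SB273005 and BAPN+Cilengitide, with a 95% interval of -1.22 to 1.13 (edgeR adjusted p = 0.987), so a difference of more than 2-fold in either direction lies within that interval. Itga8 differed by -0.37 ± 0.44 (interval -1.33 to 0.59, edgeR adjusted p = 0.821). For Itga3 and Itga9 the intervals, -1.19 to -0.20 and -1.50 to -0.02, lay below 0 before adjustment, and neither passed it.

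The beta chains that pair with these products did not pass the test. Itgb1, the common partner of all 10 chains, averaged 268 ± 102 FPKM in BAPN+SB273005, 358 ± 32.7 in BAPN+Cilengitide, 365 ± 37.6 in BAPN and 371 ± 29.6 in PBS (SD, n = 4, 3, 4 and 3), and its log2 difference from PBS was -0.43 ± 0.26 in BAPN+SB273005 (edgeR adjusted p = 0.313). Itgb4, the second partner of the Itga6 chain, averaged 1.87 ± 0.339 FPKM in BAPN+SB273005, 1.42 ± 0.284 in BAPN+Cilengitide, 2.096 ± 0.660 in BAPN and 1.88 ± 0.152 in PBS (SD, same n). Of these 2 genes, 0 passed in any of the 6 comparisons by edgeR.

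Among ligands, genes of fibronectin, tenascin and other RGD or alpha 9 ligands were the most changed. In BAPN+SB273005 against PBS 6 of 9 rose and 1 fell, with a median log2 difference of 1.38 beside 0.02 over all genes. Of all genes tested, 7.82% rose and 5.38% fell there. Osteopontin (Spp1) rose by 4.01 ± 0.72, Vcam1 by 1.73 ± 0.32, fibronectin (Fn1) by 1.62 ± 0.41, tenascin-C (Tnc) by 1.502 ± 0.30, Svep1 by 1.38 ± 0.28 and the elastic fibre protein fibulin 5 (Fbln5) by 0.82 ± 0.25 (edgeR adjusted p of 0.00580 to 0.0454). The 1 that fell was vitronectin, Vtn, at -2.80 ± 0.85 (edgeR adjusted p = 0.0475), named after its value was seen. Its PBS level was uneven, at 6.47 ± 7.16 FPKM (SD, n = 3). A gene of the list fell in 3 of the 14 fits that leave out a library, those without PBS replicate 3, BAPN replicate 2 or BAPN replicate 3. In BAPN+Cilengitide against PBS 6 of 9 rose, with a median of 1.45 beside -0.02 over all genes: Spp1 by 4.63 ± 0.76, Tnc by 2.06 ± 0.31, Fn1 by 1.94 ± 0.43, Vcam1 by 1.49 ± 0.33, Svep1 by 1.45 ± 0.29 and Fbln5 by 0.99 ± 0.26 (edgeR adjusted p of 0.00567 to 0.0447). Of all genes tested, 3.98% rose in BAPN+Cilengitide against PBS. The number of the list that rose there was 3, 2 and 3 without PBS replicate 1, 2 and 3, and 3 and 2 without BAPN+Cilengitide replicate 1 and 2. In BAPN+SB273005 it was 4 to 6 without any 1 library. In BAPN against PBS 0 passed by edgeR, and Spp1 and Tnc came nearest, at 3.08 ± 0.69 and 1.20 ± 0.29 (edgeR adjusted p = 0.0663 and 0.0862).

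Collagen ligand genes rose in part. Of 7, 3 rose in BAPN+SB273005 against PBS, namely Col1a1 by 1.48 ± 0.38, Col1a2 by 1.06 ± 0.30 and Col3a1 by 1.16 ± 0.36, the chains of fibrillar collagens (edgeR adjusted p = 0.0244, 0.0375 and 0.0495). Of the same 7, 2 rose in BAPN+Cilengitide against PBS, Col1a1 by 1.52 ± 0.40 and Col1a2 by 1.17 ± 0.32 (edgeR adjusted p = 0.0421 and 0.0496). Over all genes 7.82% rose in the first comparison and 3.98% in the second. Without PBS replicate 1, 2 or 3 the number of collagen genes that rose was 0 in both comparisons. It was also 0 without BAPN+SB273005 replicate 1 in the first comparison, and without BAPN+Cilengitide replicate 1 or 2, BAPN replicate 3 or 4 or BAPN+SB273005 replicate 4 in the second. The number was 1 without BAPN replicate 4 or BAPN+Cilengitide replicate 2 in the first, and 1 without BAPN replicate 2 or BAPN+Cilengitide replicate 3 in the second. Of 8 tested laminin and nidogen genes, 2 rose and 1 fell in both. The shares of all genes that fell were 5.38% in the first comparison and 1.60% in the second. In BAPN+SB273005 the basement membrane linker Nid1 rose by 1.25 ± 0.25, Lamb1 rose by 1.72 ± 0.41 and Lama4 fell by 0.61 in log2 units (adjusted p by edgeR of 0.00952, 0.0178 and 0.0313). In BAPN+Cilengitide Nid1 rose by 1.12 ± 0.27, Lamb1 rose by 1.59 ± 0.42 and Lama4 fell by 0.68 in log2 units (adjusted p by edgeR of 0.0299, 0.0457 and 0.0439). In BAPN+Cilengitide 0 rose and 0 fell without PBS replicate 1 or 2 or BAPN+Cilengitide replicate 1 or 2, and 1 rose without PBS replicate 3, BAPN replicate 1 or 2 or BAPN+SB273005 replicate 3. The number that fell there was also 0 without PBS replicate 3, BAPN replicate 2, 3 or 4 or BAPN+Cilengitide replicate 3. In BAPN+SB273005 1 rose and 0 fell without PBS replicate 1 or 2, and 0 fell without PBS replicate 3 or BAPN+SB273005 replicate 1.

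Of 21 tested genes for integrin activators, adaptors and inhibitors, 2 rose and 1 fell in BAPN+SB273005 against PBS. Of all genes tested, 7.82% rose and 5.38% fell there. Tln2, a talin, rose by 0.70 ± 0.17, Ptk2, the focal adhesion kinase, rose by 0.42 ± 0.13, and Ilk, the integrin-linked kinase, fell by 0.67 in log2 units (adjusted p by edgeR of 0.0210, 0.0485 and 0.0384). The number that rose was 2 without BAPN+Cilengitide replicate 1 or BAPN+SB273005 replicate 2, and 1 without any other library. The number that fell was 0 without any 1 PBS library, BAPN+Cilengitide replicate 2 or BAPN+SB273005 replicate 1, and 2 without BAPN+SB273005 replicate 4. In BAPN+Cilengitide against PBS and in BAPN against PBS 0 of 21 passed by edgeR, with the scaffold gene Bcar1 nearest at 0.38 ± 0.12 and 0.50 ± 0.11 (edgeR adjusted p = 0.0777 and 0.0591). In the 3 comparisons among the BAPN groups 0 genes of all 5 ligand, partner and adaptor lists passed by edgeR.

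Across the 14 libraries, Itga3, Itga7, Itga8 and Itga9 had positive correlations with each other. Itga3 and Itga9 had a Pearson r of 0.96 on the log2(FPKM + 1) scale, Itga8 and Itga9 0.96, Itga7 and Itga8 0.94 and Itga3 and Itga8 0.92. These values lean on BAPN+SB273005 replicate 2, and over the other 13 libraries they were 0.87, 0.76, 0.61 and 0.71. Itga7 had an r of 0.85 with Itga3 and 0.86 with Itga9, and 0.36 and 0.18 over 13. Itga6 and Itga11 had an r of 0.76 (0.79 over 13 libraries), and Itga6 and Itga8 one of -0.77 (-0.82 over 13). Itga10 and Itga8 had an r of -0.55, which was -0.03 over 13. The points share their libraries and group structure, so the values describe the 14 libraries and no more.

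The genes most like 7 of the members were found over the same 13294 genes. For Itga11 they were Col8a1, a short-chain collagen gene (r = 0.99), the syndecan gene Sdc3 (0.98) and Gpr153 (0.97), with 0.99, 0.98 and 0.97 over 13 libraries. For Itga8 they were Thsd4, Kcnmb1, a subunit of a smooth muscle potassium channel, and the protease gene Mmp17, each at 0.99 and at 0.93 over 13. For Itga9 they were Galnt2 (r = 0.98), Npnt, the gene of nephronectin (0.98), and Kcnmb1 (0.97), at 0.92, 0.90 and 0.86 over 13. For Itga3 they were the small heat shock protein gene Hspb7 (r = 0.98), Inpp5a (0.97) and Mustn1 (0.97). Itga6 was nearest to Slfn5, 4933412E12Rik and Sema6b (r of 0.95 to 0.96), and Itga5 to Cldn3, Gm12840 and the syndecan gene Sdc4 (0.90 to 0.94). Itga1 was nearest to Mmgt1, Plcb3 and Akt1 (0.95 to 0.96). Over 13 libraries the values were 0.90 to 0.94 for Itga3 and 0.94 to 0.95 for Itga6. They were 0.83 to 0.89 for Itga5 and 0.84 to 0.87 for Itga1.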

How the data were processed

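Bulk RNA-seq of mouse ascending aorta was analysed in 14 libraries, grouped by the treatment label. The submitters' processing notes name HISAT2 2.2.1, StringTie 2.1.6 and the build mm10. No source used here names the annotation release, read filters or strand setting, so antisense and overlapping genes are uncertain. FPKM, deposited by the authors per gene and per transcript, are scaled by length and library size. The deposited estimated counts are whole numbers, and each of the 10 members has the sum of its transcripts' counts in 100% of values. A gene's FPKM is not that sum. Member transcripts were named by GENCODE vM21, which has the same coordinates for 44 of 44.

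The 13294 genes that reached 1 FPKM in 3 or more libraries were tested with edgeR 4.0.16 in R 4.3.3: quasi-likelihood, TMM, 1 fit over 14 libraries, Benjamini-Hochberg adjustment, threshold 0.05. Differences are log2 with an SE worked back from the F statistic, and the intervals are approximate. Levels are FPKM, as mean ± SD. Scripts were tested on simulated data. Alternatives were other filters, DESeq2 1.42.0 and its size factors, limma 3.58.1 on log2(FPKM + 1), log2(FPKM + 0.1), log2(TPM + 1) and quantile-normalised values, 2 groups only, a replicate block, the library set, coding transcripts only, and leaving out each library.

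The members, the lists and the tests were chosen with earlier results of these data known. The genes named are all 10 members; in each ligand, partner and adaptor list up to 6 that passed, or else the 2 of smallest p; and the 3 genes of highest r with each tested member, which for Itga7 and Itga10 are not reported here. In the other marker lists the levels are given where they move with a result, and those of the kidney list because they bear on the tissue label. All 18 pairs of replicates differed by more than sampling noise (the lowest chi-square per degree of freedom was 59.3). Same-numbered libraries of BAPN+SB273005 and BAPN+Cilengitide deviated together (r of 0.361, 0.188 and 0.289), and the labels do not state a pairing. The main fit treated all libraries as unpaired, and the replicate block was used only as an alternative. Counting intervals are not given, because estimated counts are not reads assigned whole.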

Additional observations from a re-analysis of the deposited data

Results flagged for a closer look

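Of 72 groups of 4 libraries tested for a library far from the others, 9 were singled out, and chance gives about 1 in 20. A gene and its main transcript were counted apart, so the 72 are not independent and the 9 cannot be weighed against that rate. Itga11 was at 8.21 FPKM in BAPN replicate 1, far above the 1.80 to 2.52 of the other BAPN libraries, and at 20.7 in BAPN+SB273005 replicate 1, above 8.67 to 10.6 in the others. Its transcript Itga11-201 was singled out in the same libraries, at 8.46 and 21.3 FPKM. Itga1 was at 1.98 FPKM in BAPN+SB273005 replicate 2, below 3.48 to 3.71 in the others, as was its transcript Itga1-201 at 3.31 FPKM. Itga10-201 was at 7.15 FPKM in the same library, above 2.54 to 3.11 in the others. The summed platelet markers were at 22.9 FPKM in BAPN+SB273005 replicate 1, above 17.4 to 18.1 in the others. The summed skeletal muscle markers were at 1296 FPKM in BAPN replicate 3, above 137 to 282 in the others. PBS replicate 2, in a group of 3 that was not tested, was at 1992 FPKM, against 33.0 and 40.7 in the other PBS libraries.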

How the results depend on the processing

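Over the 24 member differences given and their 641 alternatives, 586 kept direction and side of the threshold, 29 lost a call, 13 gained one and 13 changed sign; the cause was not tested. The number of members that passed in BAPN+Cilengitide against PBS was 2, and became 1 with limma on log2(FPKM + 1), on log2(FPKM + 0.1) and on quantile-normalised values, 1 with coding transcripts only, 0 with the library set as a term, and 0 to 2 with 1 library left out. DESeq2 gave 1 against 0 in BAPN against PBS and 2 against 0 in BAPN+SB273005 against BAPN, where leaving out 1 library gave 0 to 1. In BAPN+SB273005 against PBS the number was 2 to 4 over all alternatives, with 3 in the main fit.

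The library set term takes its size from BAPN+SB273005 replicate 4 alone, against the other libraries of its group. With the library set as a term the difference turned to -0.19 for Itga5 in BAPN against PBS, to -0.75 for Itga6 in BAPN+SB273005 against BAPN and to 0.31 for Itga8 in BAPN+SB273005 against BAPN+Cilengitide. Within 1 set those of Itga6 and Itga8 were -0.76 and 0.30. For Itga11 in BAPN+SB273005 against BAPN+Cilengitide the main value was -0.04, and it was 0.0206 and 0.0278 with limma at pseudocounts of 1 and 0.1, 0.0384 on quantile-normalised values, 0.19 with the replicate block, and -0.38 to 0.60 with 1 library left out. The fit on TPM moved the median of all genes by up to -0.23, so its differences are relative to that.

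Of 19 same-numbered pairs 12 had a correlation over 0.1 (-0.17 to 0.37). The replicate block left the members that passed at 0 in BAPN against PBS, 2 in BAPN+Cilengitide against PBS and 0 in the 3 comparisons among BAPN groups, and gave 4 in BAPN+SB273005 against PBS. The count of all genes that passed in BAPN+SB273005 against PBS was 1754 and 2607 with DESeq2, 729 with TPM and 498 without PBS replicate 2. That in BAPN+Cilengitide against PBS was 742, and 1465 with DESeq2, 109 without PBS replicate 2 and 5 with the set as a term. BAPN against PBS gave 31, and 480 with DESeq2 and 3 with the set. Itga2 rests on few counts, and 3 or 4 libraries a group limit all of these values.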
